A study of Homo sapiens with 6 samples.

Results

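The G302V comparison set cells expressing a GFP-tagged DDX3X carrying the medulloblastoma-associated G302V change against cells expressing GFP alone. Each side was 1 RNA-seq library of HEK293T, a human line derived from embryonic kidney and expressing viral large T antigen. The tables held 39618 rows under 23204 gene symbols, and each symbol was represented by its row of highest mean level over the 6 libraries of the series. Of these symbols, 12371 had a row of 200 bases or longer and reached 1 RPKM, a read count scaled by row length and library size, in at least 1 of the 2 libraries, and all of them were compared. A ratio is the difference of log2(RPKM + 1), which understates the change of weakly expressed genes.

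Both groups were transiently transfected with 5 µg of plasmid and sorted by flow cytometry for GFP-positive cells. GFP was fused to the N terminus of DDX3X, the plasmid dose can vary from cell to cell, and the endogenous DDX3X gene was left in place. Expression was for 32 h, although a second statement of the labels gives 30 h. The other plasmid libraries received GFP-DDX3X wild type (WT) or GFP-DDX3X T275M in the same way, while 2 further libraries came from cells given a control siRNA or a DDX3X siRNA for 48 h, with no sorting stated. The comparison asks what the mutant helicase does to the transcriptome of transfected cells. With 1 library in each group there is no replicate spread and no test, so the intervals given are exact 95% intervals of the read counts and cover counting error only.

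DDX3X belongs to the DEAD-box family of helicases, which use ATP to remodel RNA. It takes part in translation initiation and enters stress granules, the cytoplasmic assemblies of stalled mRNA. Missense changes found in medulloblastoma fall in its helicase core. The position altered in the G302V plasmid is a glycine codon of exon 10, at chrX:41203531-41203533 of GRCh37 on the plus strand. The reference sequence around it is shown because it is the only designed difference between this plasmid and the WT plasmid, with the altered codon in capitals, at chrX:41203492-41203593:
DDX3X exon 10: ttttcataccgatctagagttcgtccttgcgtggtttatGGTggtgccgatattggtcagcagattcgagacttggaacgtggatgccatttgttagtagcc

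DDX3X itself, the gene the plasmid carries, was the most changed. It read 119 RPKM in the GFP library and 1906 in G302V, a log2 ratio of 3.99 (95% counting interval 3.98 to 4.01), or 16.1-fold in RPKM. The level was lower in G302V than in the other DDX3X plasmid libraries, which read 2894 RPKM in WT and 3279 in T275M. As a share of all reads, DDX3X took 0.064% in GFP (95% Wilson bounds 0.0633 and 0.0647), 1.028% in G302V (1.025 and 1.031), 1.56% in WT and 1.77% in T275M. The siRNA arm read 107 RPKM with control siRNA and 31.3 with DDX3X siRNA. The level thus separated libraries with a DDX3X plasmid, without one and with the DDX3X siRNA as labelled, but it does not show which DDX3X construct a library carried. For the library labelled T275M, a plot in the study names another mutant, and the label was followed. The dose of DDX3X and the identity of the mutant cannot be told apart in any difference between G302V and WT given here. An RPKM value counts plasmid and endogenous transcript together.

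DDX3Y, the Y-linked paralog whose sequence is nearly identical to DDX3X, stayed under the 1 RPKM minimum. It read 0.0284 RPKM in GFP, 0.519 in WT, 0.558 in T275M and 0.709 in G302V, and 0.0099 and 0.0037 in the siRNA libraries. The 3 libraries with a DDX3X plasmid were thus the high ones, but G302V was the highest of them for DDX3Y and the lowest for DDX3X. Reads shared between these paralogs could be placed on either, and their part in the DDX3Y values was not tested.

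The libraries held about 54850000 reads for GFP and 43720000 for G302V, and 47550000 to 180870000 for the other 4. The labels call the cells neuronal. Of 20 neuronal markers, 7 reached 1 RPKM in GFP and 7 in G302V, led by the neurofilament genes NEFM and NEFL, while DCX, STMN2 and ELAVL4 had no read in GFP. The summed level of the neuronal markers was 844 RPKM in GFP and 778 in G302V. It was 650 to 844 RPKM over the plasmid libraries and 658 to 765 in the siRNA libraries. Of 16 kidney epithelial markers 5 reached 1 RPKM in each of the compared libraries, 1 of 9 fibroblast markers did, and none of 7 blood markers did. SYP, a synaptic vesicle gene among the neuronal markers, passed 1.5-fold at 5.59 RPKM in G302V against 2.74 in GFP.

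Few transcripts moved far. In bulk libraries a change in all cells and a larger change in some of them cannot be told apart, nor can fewer cells of a type and less RNA per cell. Over the 12371 genes the median log2 ratio was 0.03 and the central 95% of genes lay between -0.31 and 0.46. At 1.5-fold or more, 114 genes (0.922%) were higher in G302V and 9 (0.0728%) were lower. A gene list with no member past 1.5-fold is therefore near the share of all genes. At 2-fold or more, 8 genes (0.0647%) were higher and 3 (0.0243%) were lower. The 8 were DDX3X, PHF21B, GUSBP9, CDKN1A, TP53INP1, HMOX1, ACTA2 and GDF15, and the 3 were EGR1, FOS and FOSB. Only 25 of the 114 higher genes reached 10 RPKM in either library, against 5 of the 9 lower ones and 6851 of all genes compared. For scale, WT against GFP gave 234 higher genes (1.87%) and 3 lower (0.024%) and T275M against GFP gave 271 (2.17%) and 5 (0.04%) at 1.5-fold. These counts share the GFP library with that of G302V.

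**Figure D1:**
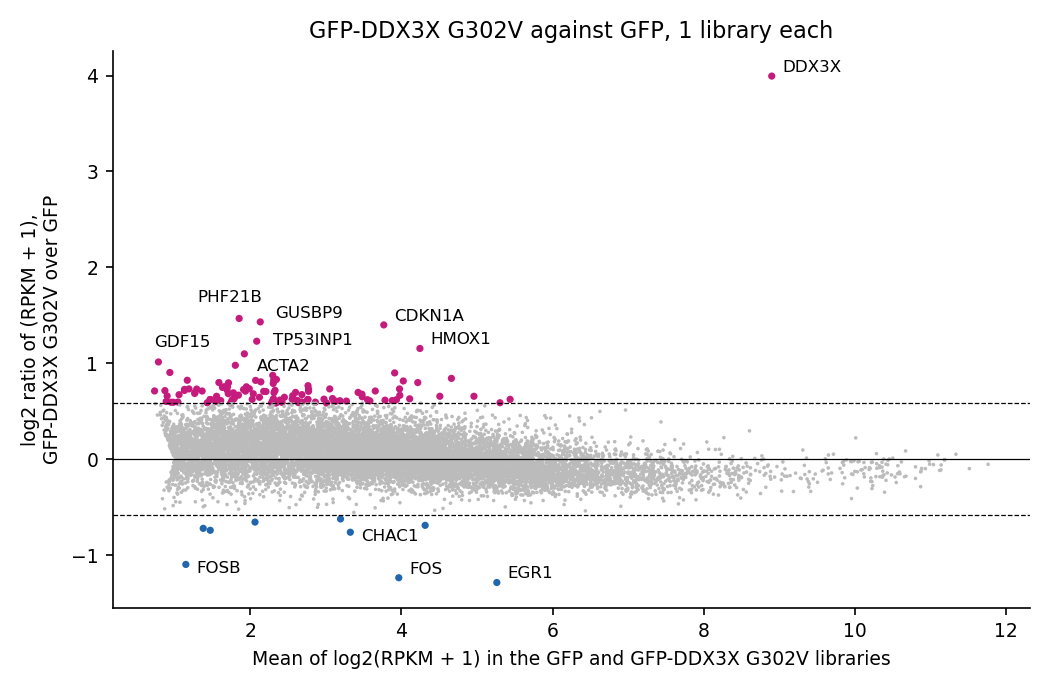
The log2 ratio of (RPKM + 1) in GFP-DDX3X G302V over GFP is plotted against the mean log2(RPKM + 1) of both libraries for 12371 genes, each point 1 gene. Dashed lines mark 1.5-fold; the 114 higher genes are magenta and the 9 lower genes blue, DDX3X stands alone at 3.99, and EGR1 and FOS are the lowest points.

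The 3 genes that were at least 2-fold lower in G302V were all immediate-early genes, transcription factors whose mRNA appears within minutes of growth factor signalling and decays as fast. EGR1 encodes a zinc-finger factor, and FOS and FOSB encode partners of JUN in the AP-1 dimer. Many genes of this class are switched on by SRF at CArG boxes and by CREB at cyclic AMP response elements. Their RefSeq promoters are shown because these genes moved together. Each runs from 250 bases before to 50 bases after the start site on the plus strand of GRCh38.p14, with CArG boxes and TATA boxes in capitals. EGR1 is at chr5:138465229-138465528, FOS at chr14:75278578-75278877 and FOSB at chr19:45467746-45468045:
EGR1: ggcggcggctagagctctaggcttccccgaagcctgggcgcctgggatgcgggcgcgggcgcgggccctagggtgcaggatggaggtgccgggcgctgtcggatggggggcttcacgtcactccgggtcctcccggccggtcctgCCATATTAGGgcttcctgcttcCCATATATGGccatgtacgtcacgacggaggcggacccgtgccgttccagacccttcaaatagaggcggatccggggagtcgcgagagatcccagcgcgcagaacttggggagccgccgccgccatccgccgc
FOS: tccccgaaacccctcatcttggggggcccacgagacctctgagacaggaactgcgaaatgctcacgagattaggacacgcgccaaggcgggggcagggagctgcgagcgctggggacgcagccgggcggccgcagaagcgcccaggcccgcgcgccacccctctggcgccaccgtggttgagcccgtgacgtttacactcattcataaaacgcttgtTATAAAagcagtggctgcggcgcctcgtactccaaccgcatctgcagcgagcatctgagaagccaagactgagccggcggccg
FOSB: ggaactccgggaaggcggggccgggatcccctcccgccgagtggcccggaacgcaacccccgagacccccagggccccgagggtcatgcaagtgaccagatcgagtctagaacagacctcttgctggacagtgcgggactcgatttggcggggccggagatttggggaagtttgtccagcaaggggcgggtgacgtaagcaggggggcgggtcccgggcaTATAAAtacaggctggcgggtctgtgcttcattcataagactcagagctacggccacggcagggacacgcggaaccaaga

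A search of both strands covered the CArG box, the TATA box (TATAAA), the cyclic AMP response element (TGACGTCA), the AP-1 site (TGACTCA), the antioxidant response element (TGACNNNGC) and CCAAT. The EGR1 window held 2 CArG boxes, at 105 to 96 and at 83 to 74 bases before the start, and 1.29% of 35116 RefSeq promoters hold at least 1. The FOS and FOSB windows each held a TATA box, as 11.5% of promoters do, and no exact match to the other motifs. Sites outside the windows, or with letters other than those searched, would be missed. The response element was in 1.85% of all promoters, the AP-1 site in 4.95%, the antioxidant element in 13.3% and CCAAT in 34.6%. Of the other 2-fold genes in these lists, the 300-base windows of CDKN1A and ACTA2 held no exact match to any of the 6. Only 1 window was searched per gene, for ACTA2 that at chr10:88991288-88991587 of GRCh38.p14. Whether this window belongs to the ACTA2 row measured was not tested, and other ACTA2 start sites were not searched.

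EGR1 read 58.9 RPKM in GFP, 55.2 in WT, 48.6 in T275M and 23.6 in G302V, and 0.557 and 0.451 in control and DDX3X siRNA. Its log2 ratio was -1.29 (-1.34 to -1.23) on 10137 and 3234 reads. FOS read 23.0 RPKM in GFP, 18.4 in WT, 18.3 in T275M and 9.18 in G302V, with a ratio of -1.24 (-1.34 to -1.13), and 1.15 and 1.73 in the siRNA libraries. For both genes G302V stood below each of the other 3 plasmid libraries, and the siRNA libraries lay far below all 4. Plasmid delivery, sorting and the time of collection all differ between these arms and cannot be told apart. FOSB was weaker, at 2.24 RPKM in GFP, 1.18 in WT, 0.897 in T275M and 0.515 in G302V, with a ratio of -1.10 (-1.23 to -0.96) on 464 and 85 reads. Set directly against WT, with no GFP library involved, G302V gave -1.19 for EGR1, -0.93 for FOS and -0.53 for FOSB.

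**Figure D2:**
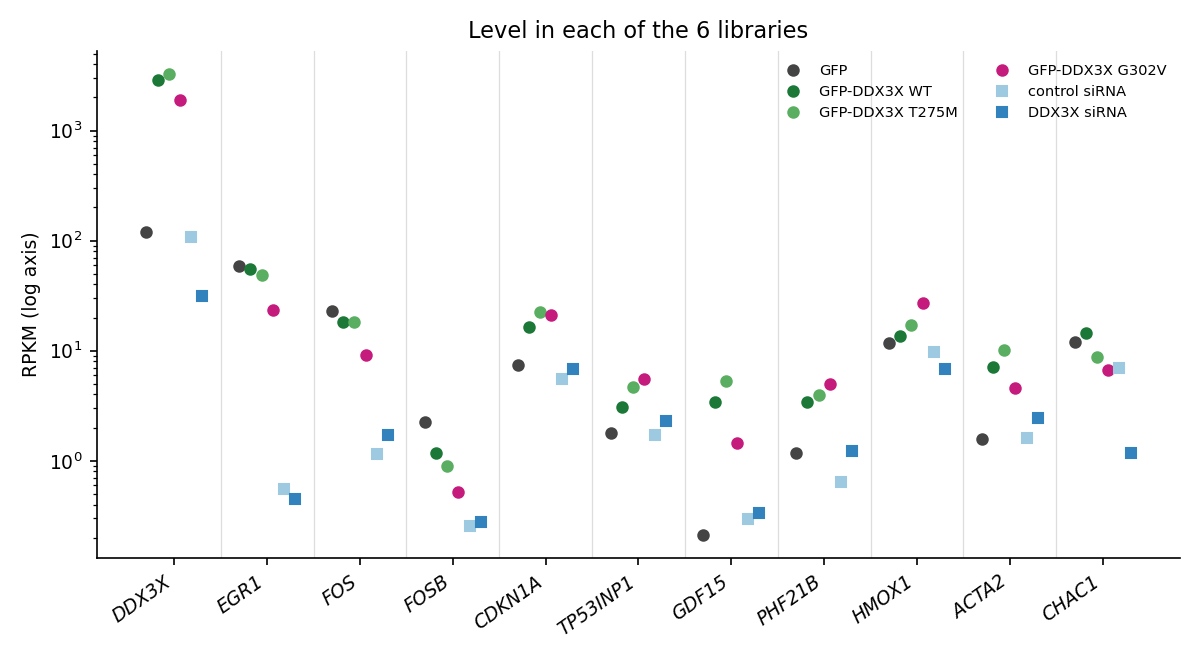
RPKM on a log axis for DDX3X, 9 further genes past 2-fold and CHAC1, with 1 point for each of the 6 libraries. G302V is the lowest of the 4 plasmid libraries (circles) for EGR1, FOS, FOSB and CHAC1 and the highest for TP53INP1, PHF21B and HMOX1, while both siRNA libraries (squares) lie below 2 RPKM for EGR1, FOS and FOSB.

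Against GFP the fall did not extend to the class as a whole. Of 43 immediate-early genes 30 were compared, of which 1 was at 1.5-fold or more higher, 3 were lower and 20 were above 0, with a median of 0.12. Over all genes 0.922% were higher, 0.0728% were lower and 55.7% were above 0. The highest member was ATF3, a stress-inducible factor, at 23.8 RPKM in GFP and 38.1 in G302V (0.66, 0.58 to 0.73). JUN, the AP-1 partner of FOS, read 104 RPKM in GFP and 148 in G302V (0.51, 0.48 to 0.54), which is under 1.5-fold and opposite in sign to FOS. Also positive and under the threshold were NR4A1, an orphan nuclear receptor (0.53), and DUSP1, a MAP kinase phosphatase (0.44). DUSP2, a further phosphatase of the same family, was at -0.50 and IER2 at -0.28. JUN read 152 and 167 RPKM in WT and T275M and DUSP1 read 37.6 and 43.99, so G302V was not set apart from these libraries for either. Directly against WT, the 32 members compared had a median of -0.14, with 9 above 0, 2 at 1.5-fold or more lower and none higher. Against T275M the median of 32 was -0.17, with 4 above 0, 3 lower and none higher. Over all genes both medians were -0.03, with 43.0% and 41.6% above 0. Of these, 138 of 12553 and 93 of 12524 were lower.

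Of the 21 gene lists examined, the p53 targets had the median farthest from that of all genes. Of 28 members, all were compared, 5 (17.9%) were at 1.5-fold or more higher against 0.922% of all genes, and none was lower. That count ran from 1 with a pseudocount of 10 to 9 with one of 0.1. It includes GDF15 (0.213 RPKM in GFP) and SPATA18 (0.649), which met the 1 RPKM minimum only through G302V. Entry that way favours a higher ratio, so these members add no support to the count. The median ratio was 0.37 against 0.03 over all genes, and 26 were above 0. The counting interval lay wholly above 0 for 23 and wholly below 0 for 1. Over all 12371 genes it lay above 0 for 4462 and below 0 for 3228, so 62.2% had an interval clear of 0. The median was 0.37 also for WT against GFP and 0.52 for T275M against GFP, with 9 and 11 members past 1.5-fold, in comparisons that share the GFP library. Against WT directly, the list had a median of -0.01 in G302V. In HEK293T p53 is bound by the large T antigen, and these genes also have inducers other than p53.

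CDKN1A, the p21 inhibitor of cyclin-dependent kinases, read 7.38 RPKM in GFP, 16.3 in WT, 22.7 in T275M and 21.1 in G302V, and 5.54 and 6.88 in the siRNA libraries. Its ratio of 1.40 (1.295 to 1.505) rested on 874 and 1993 reads, and its exons overlap the noncoding gene DINOL on the other strand. TP53INP1, which encodes a stress-induced partner of p53 and of autophagy proteins, read 1.77 RPKM in GFP, 3.09 in WT, 4.64 in T275M and 5.50 in G302V (1.23, 1.13 to 1.33). Part of an exon overlaps NDUFAF6 on the other strand, and the library kit does not mark strand. GDF15, a secreted stress cytokine, read 0.213 RPKM in GFP, 3.44 in WT, 5.35 in T275M and 1.45 in G302V (1.01, 0.78 to 1.20), on 14 reads in GFP and 76 in G302V. The order of the plasmid libraries thus differed from gene to gene, G302V being highest for TP53INP1 and lowest of the DDX3X plasmids for GDF15.

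PHLDA3, an inhibitor of AKT, read 11.3 RPKM in GFP and 20.6 in G302V (0.82), and SPATA18, a mitochondrial quality control gene, read 0.649 and 1.63 (0.67). Just under 1.5-fold were PPM1D, a phosphatase that acts on p53 (0.57), ZMAT3 (0.56), PLK3 (0.55) and FAS, a death receptor (0.55). MDM2, the p53 ubiquitin ligase, stood at 0.41 and BBC3, a pro-apoptotic BH3 gene, at 0.50. PMAIP1, another BH3 gene, was the lowest member at 30.6 RPKM in GFP, 45.9 in WT, 44.4 in T275M and 27.7 in G302V (-0.14, -0.21 to -0.06). GADD45A, a growth arrest gene outside the list that p53 also induces, read 13.1, 32.1, 36.4 and 23.5 RPKM in the same order (0.80 for G302V).

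**Figure D3:**
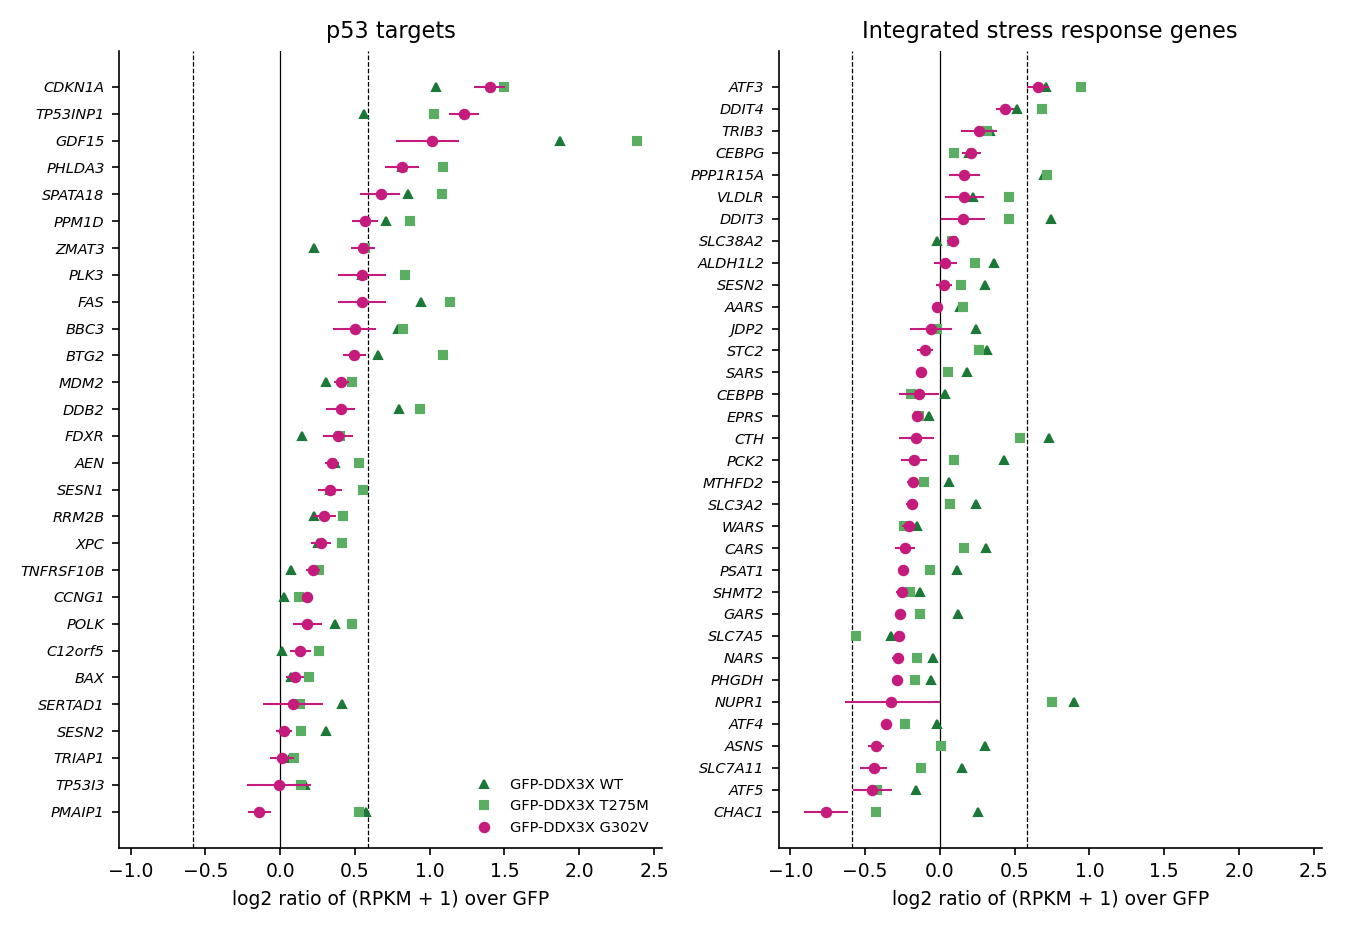
Log2 ratio over GFP for the 28 p53 targets and 34 integrated stress response genes compared, with G302V as magenta circles with 95% counting intervals, WT as dark green triangles and T275M as light green squares. The 3 ratios of a gene share the GFP library, and dashed lines mark 1.5-fold; p53 targets lie mostly right of 0 in each, while most stress response genes of G302V lie left of 0 and left of WT.

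Genes of the integrated stress response, the programme that ATF4 directs when eIF2 is phosphorylated, tended the other way. Of 35 members 34 were compared, 1 was higher at 1.5-fold (ATF3, given above) and 1 was lower (CHAC1). The median was -0.16, 10 were above 0, and the interval lay wholly below 0 for 21 and wholly above 0 for 8. Of all 12371 genes, 3228 had an interval below 0 and 4462 above 0. The median was 0.21 for WT against GFP and 0.06 for T275M against GFP. In the direct comparison of G302V with WT it was -0.30, and 7 of 34 members were 1.5-fold or more lower, where 1.10% of all 12553 genes compared were lower and 0.215% higher. None was higher.

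CHAC1, which degrades glutathione and is a sensitive ATF4 target, read 12.04 RPKM in GFP, 14.6 in WT, 8.71 in T275M and 6.69 in G302V (-0.76, -0.91 to -0.61), and 6.91 and 1.18 with control and DDX3X siRNA. ASNS, asparagine synthetase, read 82.2 RPKM in GFP, 102 in WT, 82.5 in T275M and 60.9 in G302V (-0.43, -0.48 to -0.37). ATF4 mRNA itself read 487, 480, 415 and 380 RPKM (-0.36, -0.38 to -0.33). G302V was the lowest plasmid library for each of these. SLC7A11, the cystine transporter, stood at -0.44 and ATF5, a related factor, at -0.45. CTH, of cysteine synthesis, read 9.49 RPKM in GFP, 16.4 in WT, 14.2 in T275M and 8.41 in G302V, and NUPR1 read 1.13, 2.95, 2.57 and 0.693. DDIT3, the pro-apoptotic factor CHOP, read 14.0, 24.2, 19.7 and 15.7 RPKM in the same order, and PPP1R15A, the eIF2 phosphatase subunit GADD34, read 10.0, 16.8, 17.1 and 11.3. These last 4 genes stood in G302V nearer to GFP than to WT or T275M. DDIT4, an mTOR inhibitor, did not follow them, at 42.3, 60.9, 68.3 and 57.4 RPKM.

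HMOX1, heme oxygenase, the enzyme that breaks down heme, stood higher in G302V than in each of the other 5 libraries. It read 11.7 RPKM in GFP, 13.5 in WT, 17.0 in T275M and 27.3 in G302V, and 9.75 and 6.88 in the siRNA libraries, with a ratio of 1.15 (1.05 to 1.26). Against WT directly the ratio was 0.96. It was the single member of 20 NRF2 antioxidant genes compared, of 22, to pass 1.5-fold. The list had a median of -0.12 with 3 members above 0. FTL, the ferritin light chain, stood at 0.10, while TXNRD1 and PRDX1, of the thioredoxin system, stood at -0.23 and -0.20. No other member passed 1.5-fold. Of 22 heat shock chaperones 20 were compared and none passed 1.5-fold in either direction (median -0.09), with DNAJB4 at 0.36, HSPB1 at 0.23, HSPE1 at -0.34 and DNAJA1 at -0.42. None of 26 unfolded protein response genes passed it (median 0.05), with ERO1LB, an oxidase of the endoplasmic reticulum, at 0.43 and DERL3 at -0.23.

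Among SRF and YAP targets, genes of the contractile cytoskeleton and of Hippo signalling, 25 of 34 were compared, 4 (16.0%) were at 1.5-fold or more higher against 0.922% of all genes and none was lower, with a median of 0.13. The count of 4 ran from 0 with a pseudocount of 10 to 4 over the settings tried. ACTA2, smooth muscle actin, read 1.59 RPKM in GFP, 7.10 in WT, 10.2 in T275M and 4.55 in G302V (1.10, 0.88 to 1.31). The exons of all annotated ACTA2 transcripts together overlap those of FAS on the other strand. FAS, a p53 target, read 1.97, 4.70, 5.51 and 3.33 RPKM in the same libraries. The ACTA2 exons also overlap ACTA2-AS1 on the other strand and a further noncoding gene on the same strand. Reads of such overlaps cannot be told apart. Whether the 1399-base ACTA2 row measured holds any of these overlaps was not tested. FLNC, an actin cross-linker, read 11.5, 12.03, 15.4 and 18.9 RPKM, highest in G302V (0.67). WTIP (0.80) and PTPN14, a phosphatase that binds YAP (0.61), completed the 4. The actin-binding tropomyosins TPM2 (-0.34) and TPM1 (-0.29) and the SRF target TAGLN (-0.11) did not share the direction.

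Of 25 NF-kB targets only 12 were expressed enough to compare, of which 2 were higher, against 0.922% of all genes, and none was lower (median 0.15). That count ran from 0 to 3 over the settings tried. LIF, a cytokine of the interleukin-6 family, read 0.427 RPKM in GFP, 3.18 in WT, 4.05 in T275M and 1.34 in G302V (0.72, 0.58 to 0.85), and BCL3, a nuclear IkB protein, read 1.34, 2.55, 2.99 and 2.69 (0.66). LIF met the 1 RPKM minimum only through G302V, which favours a higher ratio. NFKB2 stood at 0.24, BIRC2 at 0.22, SOD2 at -0.12 and NFKBIB at -0.27. None of 22 interferon-stimulated and nucleic acid sensing genes compared, of 49, passed 1.5-fold (median 0.06). Over all genes 0.922% were higher and 0.0728% lower, so a count of none among so few is near that share. The 27 other listed genes were too weak to compare. EIF2AK2, the double-stranded RNA-activated kinase PKR, was the highest at 7.64 RPKM in GFP and 10.9 in G302V (0.46, 0.37 to 0.55).

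The translation machinery, in which DDX3X works, showed small ratios throughout. Level moved with the ratio here, as the 785 genes with a mean of 100 RPKM or more over both libraries had a median of -0.15, the 5861 genes from 10 to 100 RPKM -0.01 and the 5725 weaker genes 0.11. None of 45 translation initiation factors passed 1.5-fold, and 6 were above 0 (median -0.15). EIF5, which promotes start codon recognition, was the highest at 49.9 RPKM in GFP, 58.7 in WT, 62.7 in T275M and 68.8 in G302V (0.45, 0.42 to 0.48). EIF5A was the lowest at 1144, 929, 839 and 861 RPKM (-0.41), with the cap-binding inhibitor EIF4EBP1 at -0.37. The 79 cytosolic ribosomal protein genes compared, of 80, had a median of -0.10, from RPL6 at -0.24 to RPL21 at 0.10, and the median was 0.01 once a fit on row length and GC content was removed. The 30 stress granule proteins had a median of 0.03, with PRRC2C and IGF2BP3 at 0.27 and EIF4G1 and UBAP2L at -0.22. Of 37 other DEAD-box helicases 32 were compared, with a median of -0.16, from DDX59 (0.19) and DDX50 (0.16) to DDX27 (-0.31) and EIF4A3 (-0.35). No member of the last 3 lists passed 1.5-fold.

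Of the mRNAs that the study names as bound by DDX3X, the 7 examined as a list had a median of -0.14, and none passed 1.5-fold. The study names others too, such as HNRNPA1 (-0.34) and EIF4A1 (-0.28), which were not in the list. Its full set of targets, from sequencing of RNA crosslinked to DDX3X, was not examined here. The study reports no significant effect of wild-type or mutant DDX3X on target mRNA levels, by RNA-seq and by RT-qPCR of selected targets. All of the 7 but HELLS and PNN exceeded 100 RPKM, where all genes had a median of -0.15. PNN, a splicing-associated protein, was the lowest of the 7 at 95.9 RPKM in GFP, 89.6 in WT, 88.5 in T275M and 75.4 in G302V (-0.34), and HNRNPA2B1 stood at -0.26. SET stood at -0.09 and EEF1A1, the elongation factor, at 0.05. Of mRNAs named as not bound, DDX10 stood at -0.20 (30.6 RPKM in GFP, 26.6 in G302V) and TPR at 0.08 (38.7 and 40.8), the latter becoming -0.15 after removal of the length and GC fit.

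DNA replication and E2F targets were the lowest list, though by little. None of 47 passed 1.5-fold, the median was -0.20, 2 were above 0, and the interval lay below 0 for 43. It lay below 0 for 3228 of all 12371 genes. MCM2, of the replicative helicase, read 140 RPKM in GFP, 132 in WT, 120 in T275M and 111 in G302V (-0.34, -0.36 to -0.31), and MCM3 read 142, 140, 124 and 113 (-0.32). ORC6 and POLE, at 0.08 and 0.05, were the members above 0. The list stood at 0.02 for WT against GFP, at -0.09 for T275M against GFP and at -0.20 in G302V against WT. The 44 mitosis and G2 genes had a median of -0.03, with AURKB at -0.27 and KIF20A at -0.27 against FOXM1, the mitotic transcription factor, and ASPM at 0.30. Of 66 replication-dependent histone genes 8 were compared, 4 were above 0 and none passed 1.5-fold (median -0.01), with HIST1H2BK at -0.28, HIST3H2A at -0.19 and HIST1H1C at -0.09. More members entered the comparisons with WT, whose level brought them over the minimum. Of 19, 11 were 1.5-fold or more lower in G302V than in WT (median -0.67), against 1.10% of all genes. In WT against GFP 10 of 19 were higher (median 0.61), against 1.87% of all genes. Entry through a high WT level favours both directions, so these counts cannot decide whether the libraries differ. Histone genes share reads with near-identical copies, and their values are uncertain.

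Mitochondrial respiratory chain subunits, 75 of 76 compared, had a median of -0.16 with 2 above 0, from NDUFV3 (-0.38) and NDUFS6 (-0.37) to NDUFS1 (0.01) and NDUFB5 (0.08). After the same fit was removed the median was -0.06. Of 41 Wnt pathway genes, the pathway active in one medulloblastoma subgroup, 37 were compared, with a median of 0.09 and none past 1.5-fold. AXIN1, a scaffold of the beta-catenin destruction complex, lay just under the threshold with 17.6 RPKM in GFP, 22.6 in WT, 25.6 in T275M and 26.9 in G302V (0.58, 0.52 to 0.65), and DVL1 stood at 0.43 against CSNK1D at -0.14 and NKD2 at -0.13. The 28 cholesterol genes compared, of 29, had a median of 0.06, with INSIG1 at 0.46, MSMO1 at 0.36, NSDHL at -0.24 and PMVK at -0.30. The 15 snoRNA host genes compared, of 17, had a median of -0.06, with SNHG7 at 0.36, GAS5 at 0.22, SNHG1 at -0.32 and SNHG10 at -0.47. None of these lists had a member past 1.5-fold in either direction.

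**Figure D4:**
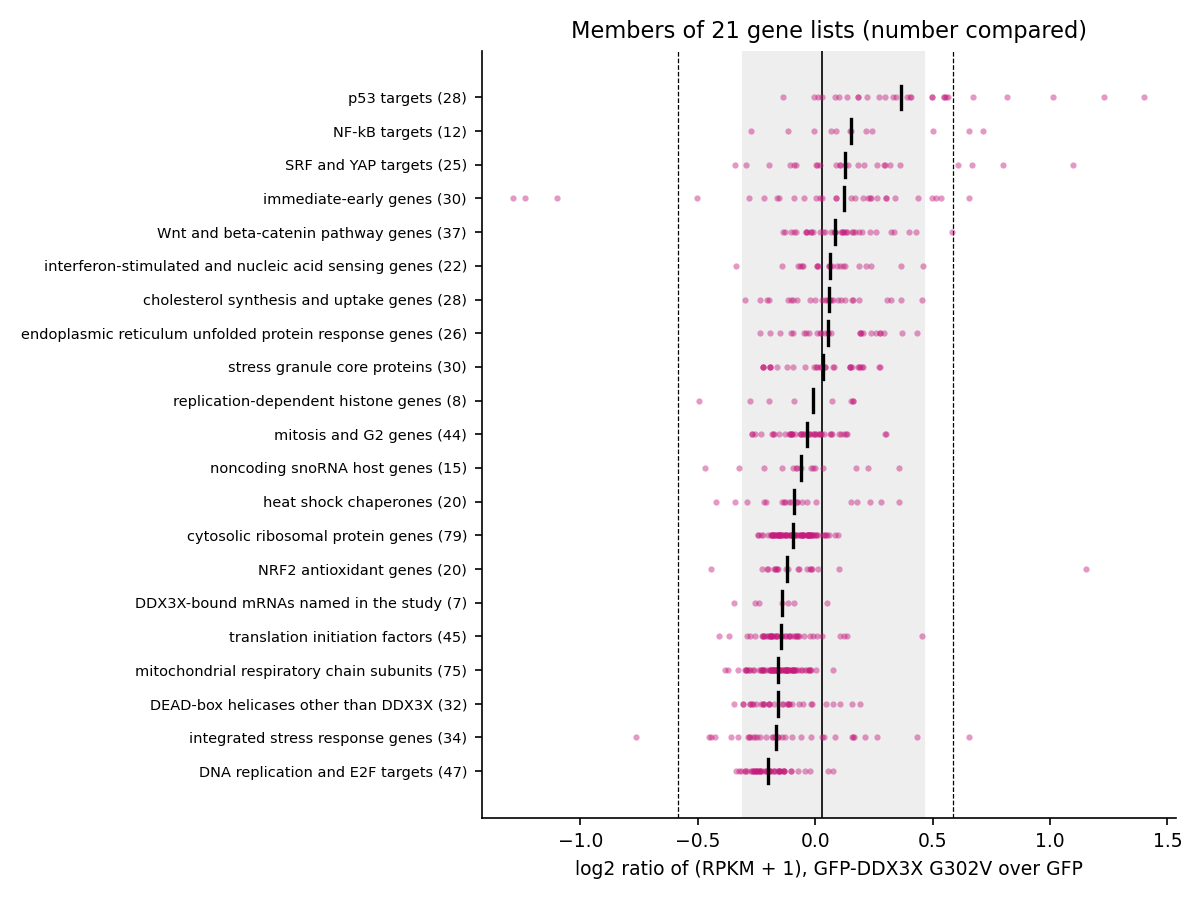
Log2 ratio of (RPKM + 1) in GFP-DDX3X G302V over GFP for the members of 21 gene lists, each point 1 gene, with the list median as a black bar and the number compared in brackets. The grey band holds the central 95% of the 12371 genes (-0.31 to 0.46), the solid line is their median (0.03), and dashed lines mark 1.5-fold; p53 targets have the highest median (0.37), and DNA replication and E2F targets the lowest (-0.20).

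Outside the lists, PHF21B, a PHD-finger chromatin protein gene at chr22:45277042-45405886 (GRCh37), was the second most changed transcript. It read 1.17 RPKM in GFP, 3.42 in WT, 3.997 in T275M and 5.01 in G302V (1.47, 1.33 to 1.598), with 0.643 and 1.22 in the siRNA libraries. GUSBP9 (1.43) is a pseudogene of the GUSB family with 25 and 74 reads, and its value is uncertain because near-identical copies share reads. Of the genes at 10 RPKM or more, NSD1, a histone methyltransferase, read 11.2 RPKM in GFP, 12.3 in WT, 15.01 in T275M and 19.3 in G302V (0.73). BRPF3, an acetyltransferase scaffold, stood at 0.71 and RCOR2, a corepressor, at 0.70. G302V was the highest plasmid library for all 3. P4HA1, a collagen prolyl hydroxylase, read 17.9, 21.6, 31.1 and 32.9 RPKM (0.84), YPEL3, a gene of growth arrest, read 10.01, 19.96, 19.3 and 19.5 (0.90), and BHLHE40, a repressor of the circadian clock, read 7.81, 11.1, 14.9 and 13.1 (0.68).

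On the lower side, after EGR1, FOS and CHAC1, the genes at 10 RPKM or more were LOC100130417 (24.3 RPKM in GFP, 14.7 in G302V, -0.69) and PRR22 (10.4 and 6.38, -0.62). The next were C14orf149 (-0.55), GPATCH4 (103 RPKM in GFP, 70.8 in G302V, -0.54), P2RY11 (-0.53), SNORD17 (-0.51), PIR-FIGF (-0.51), FAM207A (-0.50) and C6orf108 (-0.49), all under 1.5-fold. For GPATCH4, WT read 80.5 RPKM and T275M 72.5, so G302V did not stand apart. LOC100130417 read 19.99 RPKM in WT and 16.4 in T275M, between GFP and G302V.

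Transcript length moved with the ratio. The median log2 ratio was -0.09 in the shortest of 5 bins of row length (204 to 1541 bases) and -0.03, 0.02 and 0.07 in the next, and 0.17 in the longest (4728 to 37027 bases). The longest bin held 35 of the 114 higher genes and none of the 9 lower ones, and the shortest held 17 and 6. Across the 12371 genes Pearson's r of the ratio with log2 length was 0.40, a description over genes that are not replicates, and with GC content it was -0.08 over 12212 genes. T275M against GFP moved from -0.06 to 0.15 over the same bins, WT against GFP from 0.01 to 0.07, and GFP against control siRNA from 0.04 to -0.10. The short-transcript lists are those most exposed. After a quadratic fit on length and GC content was removed, the median became 0.01 for cytosolic ribosomal protein genes, whose rows have a median of 633 bases, and -0.06 for respiratory chain subunits (804 bases). It became 0.34 for p53 targets, -0.15 for the integrated stress response, -0.12 for initiation factors, -0.17 for DEAD-box helicases and -0.20 for replication and E2F targets. The origin of the length trend was not tested.

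**Figure D5:**
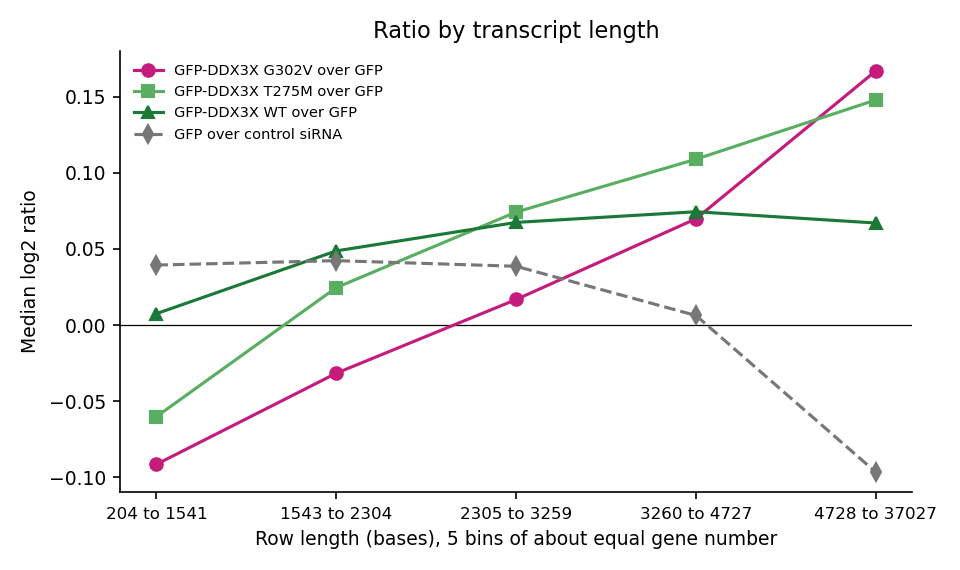
Median log2 ratio in 5 bins of row length in bases, each with about the same number of the 12371 genes, for GFP-DDX3X G302V, T275M and WT over GFP and for GFP over control siRNA. G302V has the steepest rise, from -0.09 to 0.17, and GFP over control siRNA falls from 0.04 to -0.10.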

How the data were processed

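Total RNA of 6 HEK293T libraries was prepared with TruSeq v2 kits, which do not mark strand, and sequenced. Per the submitters' notes and the study's methods, reads were trimmed with cutadapt and aligned with BWA 0.5.5 to hg19 and transcript databases, and duplicates were removed. The deposited values are RPKM, made by the authors from reads per gene, row length and library total, with no log transformation or replicate pooling, beside a length in bases for each row. The product of RPKM and length steps by the worth of 1 read. Within a tolerance of 0.1 reads, 100% of the 8649 to 10776 low rows checked per library came out whole, which gave the reads of each row and the library totals. A floor of 3 reads is 0.0547 RPKM in GFP and 0.0686 in G302V for a row of 1000 bases.

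Log2 ratios were taken of RPKM + 1 for rows of 200 bases or longer with 1 RPKM in either library. The further minimum of 10 reads in either library removed no gene. Intervals are exact (Clopper-Pearson) at 95%, from the share of a gene's reads in 1 of 2 libraries. Wilson intervals are given for shares of a library. No molecular identifiers were used, so reads need not be separate molecules, and a comparison of reads compares libraries, not conditions. No p-value was computed, as each group has 1 library. The ratio and interval code was tested on simulated data.

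The comparison, the gene lists and the markers were chosen with earlier results of these data known. Named genes are all at 2-fold or more, the 12 highest and 12 lowest ratios at 10 RPKM or more, the 2 highest and 2 lowest members of each list at 5 RPKM or more, and DDX3X, DDX3Y, DDX10 and TPR. SYP and further list members were named after their values were seen. Positions are from GENCODE mapped to GRCh37, promoters from RefSeq (GRCh38.p14), in which HMOX1 had no match. Exon overlaps were sought over all GENCODE transcripts of a gene together, not over the row measured. TP53INP1 was not considered for its promoter, and GDF15 lay outside the 6 genes taken. The legend of the study's plasmid plot names G325E where the labels name T275M, and the labels were followed. GC content came from the nearest GENCODE transcript in length. Python 3, numpy, pandas, scipy and matplotlib were used.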

Additional observations from a re-analysis of the deposited data

How the results depend on the processing

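The counts of genes at 1.5-fold or more depended on how low values and short rows were treated. Against 114 higher and 9 lower, a pseudocount of 0.1 gave 341 and 33 and a pseudocount of 10 gave 4 and 2. A minimum of 10 RPKM gave 25 and 5, and the condition that the whole 95% interval lies past the threshold gave 42 and 4. CPM with a pseudocount of 1 gave 250 higher genes, and the summed reads of all rows of a symbol gave 186. Rows of 1000 bases or more gave 5 lower genes. Without a minimum length 98 genes were lower, since rows under 200 bases enter. The DDX3X ratio was 3.90 with a pseudocount of 10, 3.96 with median-ratio scaling and 3.89 after removal of the length and GC fit. The other settings kept these counts within 1.5 times. Over 14 alternatives, 24 named genes past 1.5-fold other than DDX3X gave 326 values, all with the sign reported, of which 24 came under 1.5-fold. Of 1440 values of all 106 named genes other than DDX3X, 11 had the other sign, from TP53I3 and NDUFS1, both near 0, SNHG7 (-0.02 with the longest row) and, after the length and GC fit, TPR (-0.15), POLE (-0.12), EIF4EBP2 (-0.02) and HIST1H1C (0.02). A pseudocount of 10 brought GDF15 to 0.16 and FOSB to -0.22. The lowest ratio over the settings was 0.33 for ACTA2, 0.40 for TP53INP1, 0.43 for PHF21B and 0.47 for GUSBP9, all under 1.5-fold. CDKN1A, HMOX1, EGR1 and FOS stayed past 1.5-fold. Median-ratio scaling lowered all ratios by about 0.03, and the p53 median ran from 0.17 to 0.40 over all settings. No paired analysis was possible because each group holds 1 library.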

Other observations

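These groups were put together after the values were seen, and their values are given as a description. Zinc-finger genes named ZNF on chromosome 19, most of which encode KRAB repressors of transposable elements, stood apart between G302V and the other DDX3X plasmids. Of 129 compared, 32 were 1.5-fold or more lower in G302V than in WT and 1 was higher, with a median of -0.30, where 1.10% of all genes were lower. Against T275M 21 were lower and none higher, with a median of -0.28, where 93 of all 12524 genes compared were lower and 10 higher. Against GFP, G302V gave a median of -0.05, with 1 higher and none lower, while WT against GFP gave a median of 0.30 and T275M against GFP 0.26. ZNF134 read 1.92 RPKM in GFP, 5.63 in WT, 4.45 in T275M and 1.46 in G302V. ZNF226 read 3.47, 5.80, 5.10 and 2.25 RPKM, and its neighbour ZNF227 read 3.09, 5.37, 4.39 and 2.01. G302V was the lowest of the 4 plasmid libraries for 76 of the 129, and for 28.1% of all genes. The 223 ZNF genes on other chromosomes had a median of -0.10 in G302V against WT, with 11 lower. Members of this family share sequence, and how reads were divided among them is uncertain. The lower DDX3X level of the G302V library moves with this difference, and its part was not tested.

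Genes induced by low oxygen leaned higher in G302V. Of 40 such genes 38 were compared, 6 were at 1.5-fold or more higher, against 0.922% of all genes, and none was lower, with a median of 0.32. They were P4HA1, PFKFB4, SLC2A3, BHLHE40, P4HA2 and ENO2, with SLC2A1, a glucose transporter, just under the threshold with 14.6 RPKM in GFP, 14.3 in WT, 21.2 in T275M and 22.4 in G302V. PFKFB4, a regulator of glycolysis, read 2.73, 3.63, 5.55 and 5.62 RPKM. For both of these genes the 2 mutant libraries lay above WT and GFP. In control and DDX3X siRNA, SLC2A1 read 21.2 and 29.0 RPKM, near or above the mutant libraries. PFKFB4 read 3.42 and 3.40 RPKM there, below the mutant libraries. The list's median was 0.03 for WT against GFP, 0.31 for T275M against GFP and 0.19 for G302V against WT. P4HA1 read 30.6 and 36.8 RPKM in the siRNA libraries, near the G302V level of 32.9.

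Rows under 200 bases, left out of the comparison, leaned lower. Of all 404 with 1 RPKM and 10 reads in either library, 89 were 1.5-fold or more lower in G302V than in GFP and 14 were higher (median -0.19). Of 121 C/D box snoRNA rows among them, 46 were lower and 1 was higher (median -0.45). Of 66 H/ACA box rows, 23 were lower and 1 higher (median -0.35). Of 158 microRNA rows, 18 were lower and 10 higher (median -0.06). The C/D box median was -0.19 for WT against GFP, -0.32 for T275M against GFP and 0.40 for GFP against control siRNA, and with no GFP library involved it was -0.23 for G302V against WT and -0.11 for G302V against T275M. These reads come from a kit meant for longer RNA, and the length trend given above moves with them.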
